A study of Mus musculus with 15 samples.

Results

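Phgdh, Psat1, Psph, Asns, Trib3, Sesn2, Chac1, Ddit3, Atf5 and Ppp1r15a are transcripts of the ATF4 stress response, of which the first 3 encode the enzymes of serine synthesis. These 10 genes were chosen by name, and each was found once among the 13938 genes of the deposited table. The study sequenced poly(A) RNA of C57BL/6J mice, in 15 samples that fall into 5 groups of 3, to ask how hepatocellular carcinoma (HCC) affects the thymus. Normal mice received corn oil by intraperitoneal injection and gave 3 normal livers and 3 normal thymi. Model mice received, by the same route, diethylnitrosamine (DEN), which damages DNA and starts liver tumours, and carbon tetrachloride (CCl4), which injures hepatocytes. From each of the model mice numbered 8, 15 and 25 came a big HCC nodule, a small HCC nodule and the thymus, so the nodules stand for 3 animals. Not given in the sources used here were age and sex. The nodules were compared with livers of mice that had received corn oil, so the tumour and the DEN and CCl4 treatment cannot be told apart. The same holds for the thymi of model mice, which were compared with thymi of mice that had received corn oil.

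When amino acids are scarce or proteins fold poorly in the endoplasmic reticulum, stress kinases phosphorylate the initiation factor eIF2α. General translation then slows while the Atf4 message is translated more, and the ATF4 protein, paired with C/EBP proteins, switches on genes of amino acid supply and of stress control. ATF4 is set largely by translation, so its mRNA can stay level while its targets move. Serine is made from the glycolytic intermediate 3-phosphoglycerate by PHGDH, PSAT1 and PSPH in turn, and feeds glycine, folate one-carbon units and, through transsulfuration, cysteine.

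The titles assigned samples to groups, because the tissue entries of the thymi name liver or nodule. Markers fitted the titles: 8 thymocyte markers summed to 2116 to 2459 FPKM in the thymi and to 3.86 to 15.5 FPKM in livers and nodules, and the thymic epithelial factor Foxn1 was listed at 0 in every liver and nodule. FPKM are fragments scaled to the length of the gene and to the size of the library, so levels are per length. Over all genes they summed to 331746 to 377984 in livers and nodules and to 225669 to 257205 in thymi, and the number of fragments behind them is unknown. The big nodule of mouse 25 stood apart with 2.88% of its summed FPKM in mitochondrial genes, where the remaining nodules and the livers had 6.93% to 11.1%. The 2 livers numbered 3 and 5 in the table were used as members of the group only, because their titles both name mouse 3, so it is not established that the 3 livers come from 3 animals.

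The promoters of 3 members held the core of the CEBP-ATF response element, the DNA site bound by ATF4 with a C/EBP partner, and they are shown because 2 of these genes rose in nodules and the third did not. The letters TGATGNAA were searched on both strands, in the 250 bases before and the 50 bases after each RefSeq start. They occurred in Trib3, Asns and Chac1, in 10 of 31 other ATF4 target genes with a promoter sequence, and in 1304 of 32851 promoter windows, or 3.97%. The endoplasmic reticulum stress element, CCAAT and CCACG with 9 bases between them, was in no member window and in 0.119% of all windows. No match says only that the letters are not in this window. The sequences are from RefSeq on GRCm38.p6, read 5′ to 3′ on the strand of the gene, with the match in capitals.
Trib3: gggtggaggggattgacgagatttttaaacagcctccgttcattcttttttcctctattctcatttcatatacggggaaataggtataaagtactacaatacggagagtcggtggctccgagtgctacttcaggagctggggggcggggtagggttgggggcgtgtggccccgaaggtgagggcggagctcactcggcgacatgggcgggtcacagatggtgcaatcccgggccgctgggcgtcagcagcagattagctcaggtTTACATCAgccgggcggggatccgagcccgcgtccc
Asns: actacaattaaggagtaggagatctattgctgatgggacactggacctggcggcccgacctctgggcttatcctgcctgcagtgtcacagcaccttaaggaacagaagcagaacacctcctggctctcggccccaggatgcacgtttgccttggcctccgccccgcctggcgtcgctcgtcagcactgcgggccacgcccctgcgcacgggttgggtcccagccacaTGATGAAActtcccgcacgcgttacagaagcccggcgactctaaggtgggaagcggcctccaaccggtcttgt
Chac1: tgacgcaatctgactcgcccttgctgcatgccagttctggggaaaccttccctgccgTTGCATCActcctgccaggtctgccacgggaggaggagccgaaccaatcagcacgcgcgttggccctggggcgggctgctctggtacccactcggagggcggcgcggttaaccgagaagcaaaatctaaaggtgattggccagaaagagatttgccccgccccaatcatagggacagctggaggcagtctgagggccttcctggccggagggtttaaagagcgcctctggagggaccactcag
The Trib3 window is chr2:152344011-152344310 on the minus strand, and its match, TTACATCA, is the reverse complement of the motif, with its first base at +15 from the start. The Asns window is chr6:7693160-7693459 on the minus strand, and TGATGAAA begins at -23. The Chac1 window is chr2:119350992-119351291 on the plus strand, and TTGCATCA, again the reverse complement, begins at -193. These positions count from RefSeq starts, which differ from the gene coordinates given below. By those coordinates the Trib3 match, at 152344039-152344046, lies before the gene start at 152344032. The Asns match, at 7693225-7693232, lies inside the gene, which starts at 7693254.

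In nodules 6 of the 10 members rose against normal livers and none fell. All 3 serine enzymes rose, from FPKM near 0 in Phgdh and Psat1, and so did the asparagine enzyme Asns and the regulators Trib3 and Sesn2. Ddit3, Atf5, Chac1 and Ppp1r15a did not pass the test. Each mouse entered as the mean of its nodules on the log2(FPKM + 1) scale, and limma with Benjamini-Hochberg adjustment was run over 10669 genes at an adjusted p under 0.05. In the same comparison 40.5% of all genes were called, 27.4% higher and 13.1% lower. Phgdh, Psat1 and Trib3 met the filter of 1 FPKM in 3 samples through the nodules, their high group. A gene under 1 FPKM in all nodules needed all 3 livers, so the filter admitted rises more readily. With no filter these 3 genes kept their calls, and 3585 of 13745 genes were called higher. The median difference of the 10 members was 1.20 and that of all genes 0.13. Of the calls over all genes 67.6% were upward, but 48.9% with median-of-ratios scaling, 49.6% with quantile normalization and 78.8% with equal sums, under which the median of all genes was -0.03, -0.05 and 0.24. The 6 members were called higher under all 3 scalings, and 6 were called higher without the big nodule of mouse 25, as were 2913 of 10563 genes. Of the 2 livers whose titles name mouse 3, leaving out the one numbered 3 left 6 members called higher, and leaving out the one numbered 5 left 5, Asns having lost its call (adjusted p = 0.0534). In 5 of them, Asns being the exception, every nodule lay above every liver, as did the nodules in 27.4% of all genes.

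**Figure D1:**
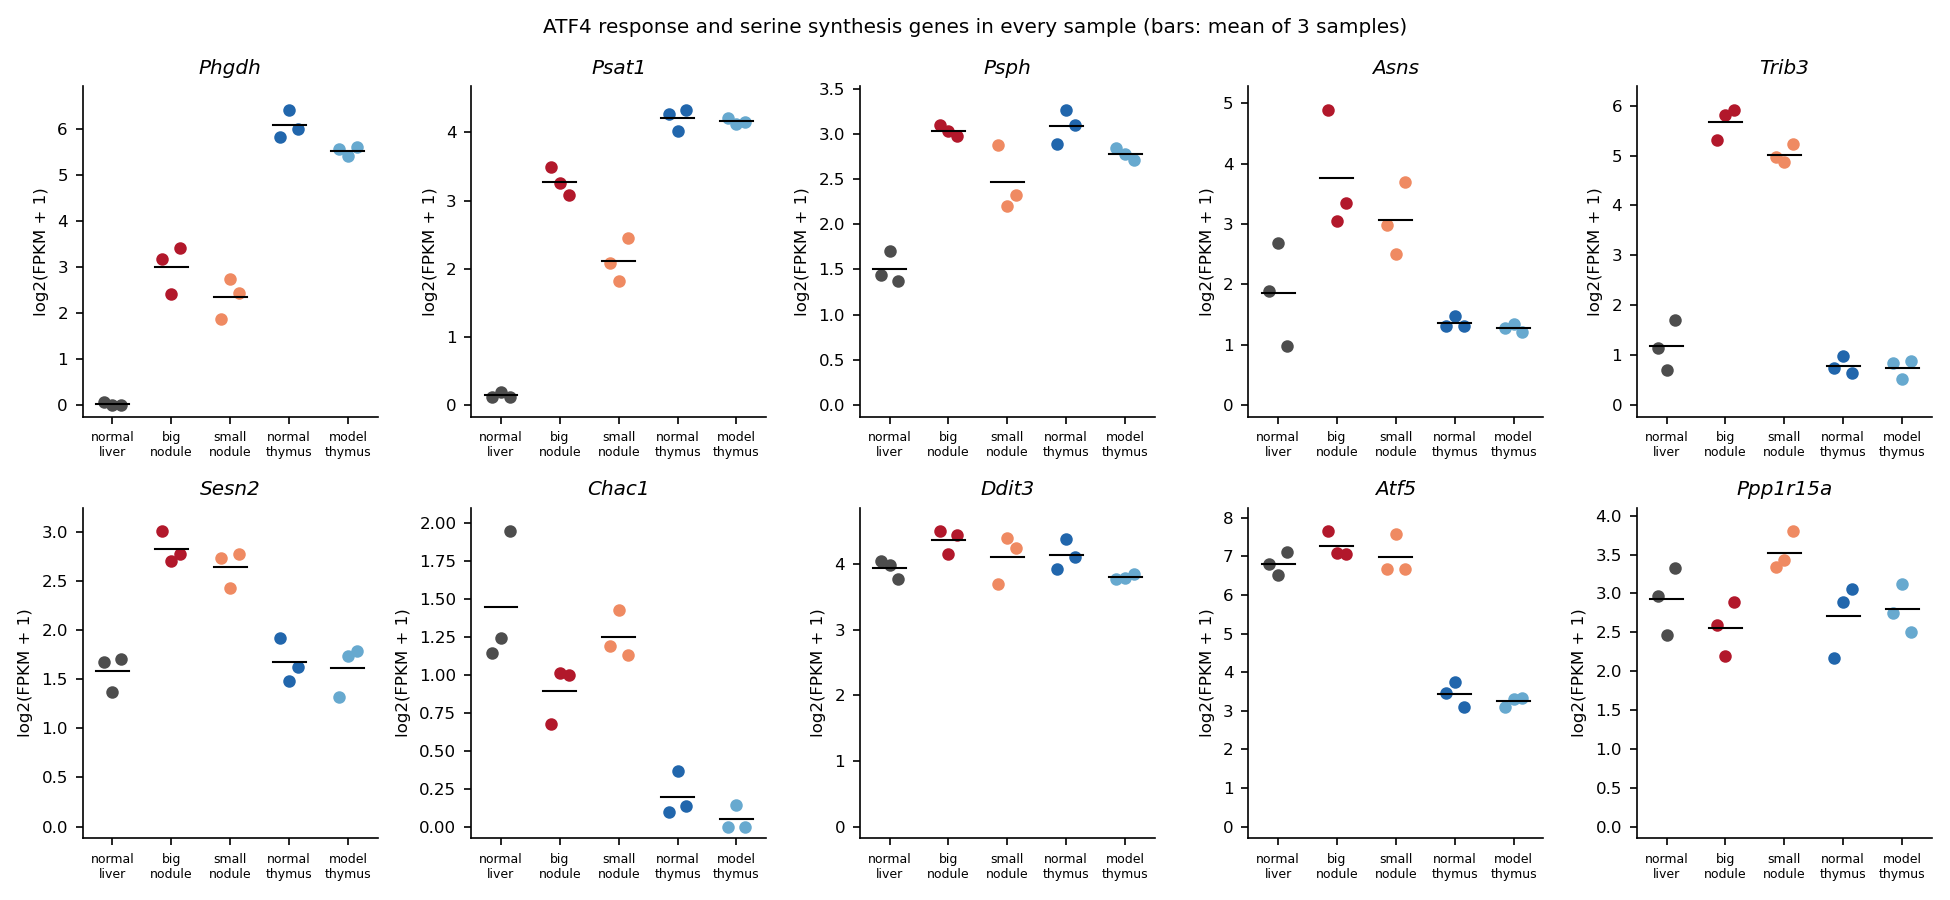
FPKM of the 10 genes on the log2(FPKM + 1) scale (y axis) in each of the 15 samples, by group (x axis); points are samples and bars the mean of 3. Phgdh, Psat1, Psph, Trib3 and Sesn2 are higher in all 6 nodules than in all 3 livers, and Phgdh and Psat1 are higher still in all 6 thymi.

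Phgdh encodes phosphoglycerate dehydrogenase, the first enzyme of the pathway, and lies at chr3:98313170-98339990 in mm10 on the minus strand. It was listed at 0.0384, 0 and 0 FPKM in the livers. The big nodules of mice 8, 15 and 25 gave 7.97, 4.30 and 9.57 FPKM, and their small nodules gave 2.63, 5.71 and 4.42 FPKM. Every nodule was thus above every liver, while big and small nodules overlapped. The difference on the log2(FPKM + 1) scale was 2.65 (SE 0.134, 95% interval 2.34 to 2.96, limma adjusted p = 8.96e-06). No fold is given against livers at 0, and this difference depends on the pseudocount, being 5.60 when 0.1 was added in place of 1.

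Psat1, phosphoserine aminotransferase at chr19:15904678-15947337, carries out the next step. The livers had 0.0896, 0.144 and 0.0855 FPKM. The big nodules of mice 8, 15 and 25 had 10.3, 8.52 and 7.44 FPKM, and the small nodules 3.26, 2.51 and 4.44 FPKM. Livers, small nodules and big nodules formed 3 separate ranges in that order. The nodule mean of 6.07 ± 0.631 FPKM (SD, n = 3 mice) was 57.1 times the liver mean of 0.106 ± 0.0325 FPKM (SD, n = 3), and the log2(FPKM + 1) difference was 2.55 (SE 0.116, adjusted p = 6.10e-06), or 4.74 when 0.1 was added.

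Psph encodes phosphoserine phosphatase, which releases free serine, and lies at chr5:129765558-129787449. It was already present in livers, at 1.70, 2.25 and 1.58 FPKM. The big nodules had 7.54, 7.14 and 6.84 FPKM and the small nodules 6.32, 3.59 and 3.998 FPKM. All 6 nodules exceeded the livers, and the nodule mean of 5.91 ± 0.889 FPKM was 3.21 times the liver mean of 1.84 ± 0.354 FPKM (SD, n = 3 each). The log2(FPKM + 1) difference was 1.25 (SE 0.150, adjusted p = 0.000474). Psph shares 452 exon bases with Cct6a on the opposite strand, and the library kit keeps the strand while the strand setting of the counting was not given in the sources used here.

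Asns, asparagine synthetase at chr6:7675169-7693254, makes asparagine from aspartate and glutamine. The livers were uneven, at 2.71, 5.47 and 0.961 FPKM. The big nodules of mice 8, 15 and 25 had 28.8, 7.32 and 9.20 FPKM, and the small nodules 6.88, 4.68 and 11.9 FPKM. The big nodule of mouse 8 was far above the others, and the small nodule of mouse 15 lay below the highest liver. Asns rose by 1.56 on the log2(FPKM + 1) scale (SE 0.439, 95% interval 0.55 to 2.58, adjusted p = 0.0235). It was the least firm of the 6 calls: the adjusted p was 0.0632 without the liver numbered 2, 0.0534 without the liver numbered 5, 0.0692 without mouse 8, 0.0603 without mouse 25 and 0.0735 with small nodules alone. Without the big nodule of mouse 8 alone, mouse 8 being then represented by its small nodule, the difference was 1.24 (adjusted p = 0.0411).

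Trib3 encodes a pseudokinase that binds ATF4 and CHOP and damps their activity, and is itself an ATF4 target; it lies at chr2:152337422-152344032. The livers had 1.22, 0.625 and 2.28 FPKM. The big nodules of mice 8, 15 and 25 had 38.9, 54.9 and 59.6 FPKM and the small nodules 30.2, 28.1 and 36.6 FPKM. Livers, small nodules and big nodules again did not overlap. The log2(FPKM + 1) difference of Trib3, the largest of the 10 members at this pseudocount, was 4.16 (SE 0.249, 95% interval 3.59 to 4.74, adjusted p = 2.04e-05). The nodule mean of 41.4 ± 6.78 FPKM was 30.1 times the liver mean of 1.38 ± 0.838 FPKM (SD, n = 3 each).

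Sesn2, at chr4:132492032-132510501, encodes sestrin 2, a leucine-binding inhibitor of mTORC1 that is induced by ATF4 and by p53. It had 2.21, 1.59 and 2.26 FPKM in livers, 7.06, 5.53 and 5.84 FPKM in big nodules and 5.66, 4.40 and 5.84 FPKM in small nodules. The nodules were all above the livers and big and small nodules overlapped. The nodule mean of 5.72 ± 0.706 FPKM was 2.83 times the liver mean of 2.02 ± 0.372 FPKM (SD, n = 3 each), and the log2(FPKM + 1) difference was 1.15 (SE 0.142, adjusted p = 0.000526). In a list of 14 p53 targets other than Sesn2, 12 rose and none fell (median 1.00, against 0.13 for all genes). Over all genes 27.4% rose and 13.1% fell. In the list Phlda3, an inhibitor of AKT, rose by 2.90 (limma adjusted p = 0.000183) and Psrc1, a spindle protein, by 3.17 (adjusted p = 0.000278). With only genes that reached 5 FPKM tested, 6 of that list rose, as did 1543 of 6088 genes. That filter also removed low genes of the list, so 12 and 6 are not out of the same number. The part of p53 targets in the Sesn2 result was not tested.

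The stress effectors moved less. Ddit3 encodes CHOP, the transcription factor tied to cell death under prolonged stress, at chr10:127290774-127296288. It had 15.5, 15.0 and 12.6 FPKM in livers, 21.8, 16.9 and 20.9 FPKM in big nodules and 12.02, 20.1 and 17.97 FPKM in small nodules. The small nodule of mouse 8 lay below all livers and the other 5 nodules above them. The difference was 0.31 (95% interval 0.01 to 0.61, adjusted p = 0.0953), and it passed only with equal sums (0.45, adjusted p = 0.0233). Ddit3 shares 68 exon bases with Mars on the opposite strand, and 105 with a second annotated gene of the same symbol on its own strand.

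Atf5, at chr7:44812256-44816658, encodes a relative of ATF4 that is itself translated more when eIF2α is phosphorylated. It was the most abundant member in the liver and nodules per length, with 109.6, 90.9 and 137 FPKM in livers, 200.2, 136 and 133 FPKM in big nodules and 101, 191 and 100.4 FPKM in small nodules. The groups overlapped throughout, and the difference of 0.31 (95% interval -0.12 to 0.75) did not pass (adjusted p = 0.223). Atf5 shares 82 exon bases with Nup62, and as many with Il4i1, both on the opposite strand.

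Chac1 encodes an enzyme that breaks down glutathione, at chr2:119351229-119354381, and is often a strong ATF4 and CHOP target in stressed cells. It had 1.21, 1.37 and 2.86 FPKM in livers, 0.595, 1.02 and 0.996 FPKM in big nodules and 1.28, 1.69 and 1.19 FPKM in small nodules. All big nodules were below all livers, and small nodules overlapped the livers. The difference was -0.37 (95% interval -0.87 to 0.12, adjusted p = 0.202), and with quantile normalization it passed as a fall (-0.68, adjusted p = 0.0317).

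Ppp1r15a, at chr7:45522916-45526268, encodes GADD34, which brings a phosphatase to eIF2α and restores translation. It had 6.84, 4.53 and 9.04 FPKM in livers, 5.03, 3.56 and 6.42 FPKM in big nodules and 9.12, 9.82 and 12.9 FPKM in small nodules. Big nodules overlapped the livers and small nodules lay just above them. The difference over both nodule sizes was 0.12 (95% interval -0.42 to 0.66, adjusted p = 0.718), and its sign turned with median-of-ratios scaling, with quantile normalization and with big nodules alone. It shares 12 exon bases with Tulp2 on the opposite strand.

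Few mRNAs of the eIF2α and ATF4 machinery passed the test. Atf4 itself had 47.2 to 55.0 FPKM in livers and 40.1 to 62.9 FPKM in nodules, a difference of -0.04 (95% interval -0.35 to 0.27, adjusted p = 0.839). The eIF2α kinase Eif2ak3 (PERK), which senses misfolded proteins, differed by -0.09 (adjusted p = 0.687). Eif2ak4 (GCN2), which senses uncharged tRNA, rose by 0.66 (adjusted p = 0.00351), from 1.52 ± 0.224 FPKM in livers to 2.99 ± 0.294 FPKM in nodules (SD, n = 3 each). Of 23 kinases, eIF2 and eIF2B subunits, phosphatase subunits and partner or response factors, Nupr1 among them, 4 rose and 1 fell (median -0.07). Over all genes the shares were 27.4% and 13.1% (median 0.13). Nupr1, a small stress cofactor, rose by 2.08 (adjusted p = 0.00336), and its value of 28.2 FPKM in the small nodule of mouse 15 was the highest, the median of the 6 nodules being 5.67 FPKM. Eif2s1, the eIF2α subunit, rose by 0.47 (adjusted p = 0.0195) and Eif2b4, of the exchange factor, fell by 0.55 (adjusted p = 0.0296).

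Other known ATF4 targets were split. Of 39 such genes listed, 30 were tested, and 12 rose and 6 fell (median 0.31). The shares higher and lower over all genes were 27.4% and 13.1% (median 0.13). With only genes that reached 5 FPKM tested, 6 of the list rose, as did 1543 of 6088 genes. Low genes of the list were then not tested, so 12 and 6 are not out of the same number. Eif4ebp1, a repressor of cap-dependent translation, rose by 1.45 (adjusted p = 9.02e-05), from 9.67 ± 0.684 to 28.4 ± 2.82 FPKM. Slc1a4, a carrier of serine, alanine and threonine, rose by 1.54 (adjusted p = 0.000166) and Aldh18a1, which starts proline synthesis, by 1.40 (adjusted p = 0.000110). Cth, which makes cysteine in transsulfuration, fell by 2.18 (adjusted p = 9.09e-05), from 149 ± 34.1 to 32.0 ± 3.86 FPKM (SD, n = 3 each). Gdf15, a secreted stress signal, fell by 2.17 (adjusted p = 0.00342), from 40.7 to 141 FPKM in livers to 9.92 to 17.5 FPKM in nodules, and the liver numbered 5 was the highest. Atf3, a rapidly induced repressor, was also uneven in livers, at 4.24 to 75.3 FPKM, and differed by -0.51 (adjusted p = 0.654). Fgf21, a hormone released by stressed liver, differed by 1.14 (adjusted p = 0.0763), with 42.9 FPKM in the small nodule of mouse 15 against a median of 8.04 FPKM over the 6 nodules.

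Among 20 cytosolic aminoacyl-tRNA synthetases, which ATF4 commonly raises as a block, 3 rose and 4 fell (median 0.07). The shares over all genes were 27.4% and 13.1% (median 0.13). Vars rose by 0.69 (adjusted p = 0.00427) and Sars, which charges serine, by 0.53 (adjusted p = 0.0107), while Aars fell by 1.05 (adjusted p = 0.000322) and Mars by 0.44 (adjusted p = 0.0151). The split moved with the scaling, as did the calls over all genes. With equal sums 8 synthetases rose and 1 fell, and of 10669 genes 3765 rose and 1013 fell.

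Of 29 tested genes of serine and glycine use and folate one-carbon metabolism, 5 rose and 14 fell (median -0.24, against 0.13 for all genes). All genes gave 27.4% higher and 13.1% lower. In the list the number that rose was 8 with equal sums or with no filter on low values and 2 without the liver numbered 2. Over all genes the number that rose was 3765 of 10669, 3585 of 13745 and 2238 of 10569 in these 3 fits. Cth, Cbs, Slc1a4, Slc1a5, Shmt2, Mthfd2 and Aldh1l2 belong to this list and to that of ATF4 targets. Gnmt, which methylates glycine, fell by 2.13 (adjusted p = 0.000152), from 869 ± 157 to 208 ± 50.3 FPKM (SD, n = 3 each). Dmgdh, which returns dimethylglycine toward glycine, fell from 172 ± 30.9 to 41.6 ± 11.8 FPKM (adjusted p = 0.000204). The 2 serine hydroxymethyltransferases, which split serine into glycine and a one-carbon unit, fell less: Shmt2 by 0.53 (adjusted p = 0.0239) and Shmt1 by 0.59 (adjusted p = 0.0286). In the mitochondrial folate path Mthfd2 rose by 0.49 (adjusted p = 0.0163), from 0.730 ± 0.104 to 1.45 ± 0.314 FPKM. Mthfd1l, named after its values were seen, rose by 1.97 (adjusted p = 0.00181).

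**Figure D2:**
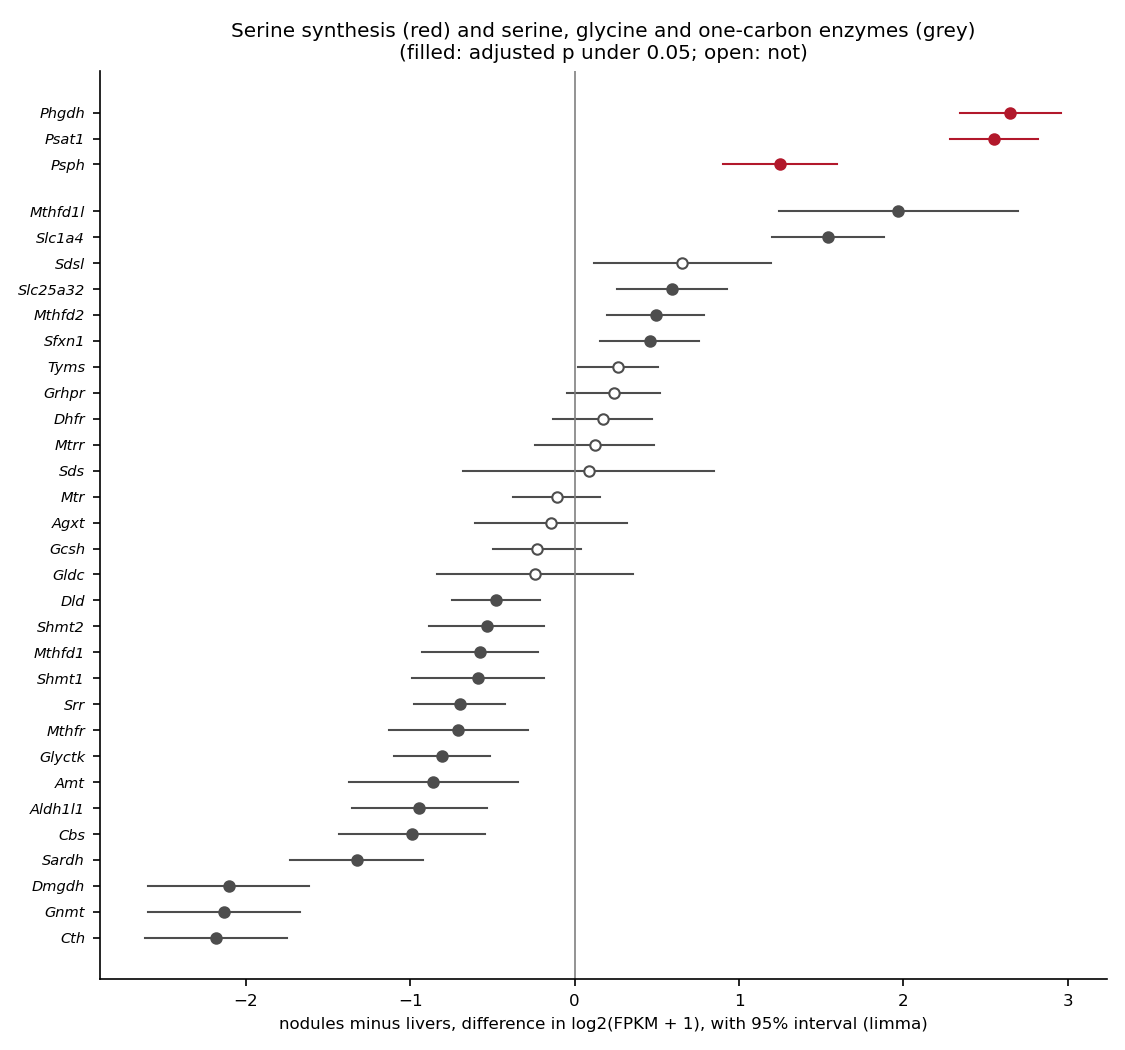
Difference between nodules and livers in log2(FPKM + 1) (x axis) for the 3 serine synthesis enzymes (red) and the 29 tested genes of serine and glycine use and one-carbon metabolism (grey), with the limma 95% interval as the line; filled points have an adjusted p under 0.05. All 3 red points lie above 1, and of the grey points 5 filled ones lie above 0 and 14 below.

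Neighbours of Asns and Chac1 in metabolism showed 4 rises and 5 falls among 13 tested (median -0.17). Over all genes 27.4% rose and 13.1% fell (median 0.13). Glul, which makes the glutamine that asparagine synthetase uses, fell by 3.08 (adjusted p = 0.000217), from 286 ± 8.01 to 36.9 ± 16.6 FPKM. In glutathione synthesis Gss rose by 1.02 (adjusted p = 0.00106) and the regulatory subunit Gclm fell by 0.97 (adjusted p = 0.00142). Among 10 paralogs of the members 2 rose and 2 fell (median -0.16). Trib1, which like Trib3 is a pseudokinase, fell by 1.12 (adjusted p = 0.00468) and Trib2 rose by 0.72 (adjusted p = 0.00345). Chac2 fell by 0.62 (adjusted p = 0.00842). Sesn1 rose by 0.41 (adjusted p = 0.0393).

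In the IRE1 and ATF6 arms of the unfolded protein response 4 of 22 genes rose and 1 fell (median -0.16). For all genes the shares were 27.4% and 13.1% (median 0.13). Xbp1, the factor spliced by IRE1, rose by 0.74 (adjusted p = 0.00351) and Pdia6, a disulfide isomerase, by 0.88 (adjusted p = 0.00187). Derl1, a channel component of protein disposal, rose by 0.77 (adjusted p = 0.00120) and the chaperone Hyou1 fell by 1.12 (adjusted p = 0.0171). Hspa5, the chaperone BiP and the usual marker of this response, differed by 0.47 (adjusted p = 0.0686). Without the liver numbered 5 the number that fell was 7, and over all genes it was 1113 of 10574. Of 11 genes of the mitochondrial stress relay none rose and 5 fell (median -0.36), including Gdf15, the chaperone Hspd1 by 0.50 (adjusted p = 0.00949), the protease Oma1 by 0.46 (adjusted p = 0.0217) and the protease Clpp by 0.41 (adjusted p = 0.0301). The number that fell was 2 without the liver numbered 5 and 2 with equal sums. With equal sums 1013 of 10669 genes fell.

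Markers of several cell types moved with the nodules. The summed level of 6 hepatocyte markers was 21035 to 23807 FPKM in livers, 40562 to 47082 FPKM in big nodules and 33191 to 39673 FPKM in small nodules. The sum of 5 cholangiocyte markers was 32.6 to 42.6 FPKM in livers, 55.4 to 363 FPKM in big nodules and 215 to 387 FPKM in small nodules. Among these 5 markers only Spp1 was above the livers in every nodule, at 7.89 times the liver mean. Krt19, Krt7, Epcam and Sox9 overlapped the livers. The nodule mean of Krt19 was 0.611 of the liver mean, and that of Sox9 was 1.90 times it. Sums were also higher in nodules for 6 macrophage markers, at 161 to 216 FPKM against 88.5 to 127 FPKM, and for 6 markers of dividing cells, at 10.6 to 29.2 FPKM against 1.25 to 1.60 FPKM. Adipocyte markers, 4 in number, summed to 19.7 to 32.2 FPKM in nodules and 4.44 to 6.16 FPKM in livers, and 6 lymphocyte markers to 81.4 to 118 FPKM and 49.9 to 64.2 FPKM. Of the adipocyte markers Fabp4 and Cidec were above the livers in every nodule, at 4.86 and 5.15 times the liver mean. Adipoq and Plin1 overlapped the livers. Endothelial sums were 53.7 to 81.0 FPKM against 25.5 to 29.2 FPKM, and stellate cell sums 50.2 to 74.6 FPKM against 38.9 to 49.96 FPKM. By the limma test 4 of 6 hepatocyte, 2 of 4 tested cholangiocyte, 5 of 6 macrophage, 5 of 7 stellate cell, 4 of 5 endothelial, 2 of 2 tested adipocyte, 2 of 3 tested lymphocyte and 5 of 5 tested dividing-cell markers rose, and 1 stellate cell marker fell. The shares over all genes were 27.4% higher and 13.1% lower. In livers the 6 dividing-cell markers summed to at most 1.60 FPKM. Those tested therefore met the filter of 1 FPKM in 3 samples through nodules and could hardly be called lower. In bulk tissue fewer or more cells of a type and less or more RNA per cell cannot be told apart, and the part of these cell types in the members' results was not tested. The thymocyte sum in nodules, 4.73 to 15.5 FPKM, was far below that of the thymi.

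In thymi of model mice none of the 8 members tested passed against normal thymi, and neither did any of 11332 genes (0% called; limma adjusted p). At an unadjusted p under 0.05 there were 1159 genes, Phgdh and Ddit3 among them. Trib3 and Chac1 were below the filter of 1 FPKM in 3 samples. In Phgdh, Psph and Ddit3 every model thymus was below every normal thymus, as in 6.53% of all genes. No member was above throughout, as 12.3% of all genes were. The median of the 8 members was -0.13 and that of all genes 0.05.

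Phgdh was far more abundant in thymus than in nodules, at 56.0, 84.5 and 63.2 FPKM in normal thymi and 46.1, 41.2 and 47.8 FPKM in the thymi of model mice 8, 15 and 25. The ranges did not overlap, and the mean of 45.0 ± 3.40 FPKM was 0.663 of 67.9 ± 14.8 FPKM (SD, n = 3 each). The difference was -0.56 (95% interval -0.94 to -0.19, limma adjusted p = 0.481), so it did not pass over all genes. Ddit3 had 14.3, 20.0 and 16.3 FPKM in normal thymi and 12.8, 12.9 and 13.4 FPKM in model thymi (difference -0.33, adjusted p = 0.481). Psph had 6.42, 8.63 and 7.56 FPKM against 6.16, 5.82 and 5.57 FPKM (difference -0.31, 95% interval -0.62 to 0.00, adjusted p = 0.490). For Ddit3 and Psph too the model thymi were lower and tighter without passing.

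Psat1 was level in thymus, at 18.2, 15.3 and 19.2 FPKM in normal and 17.6, 16.3 and 16.9 FPKM in model thymi, with a difference of -0.04 (95% interval -0.32 to 0.23, adjusted p = 0.874). Asns was low, at 1.48, 1.78 and 1.48 FPKM against 1.43, 1.53 and 1.33 FPKM (adjusted p = 0.761). Sesn2 had 2.80, 1.80 and 2.08 FPKM in normal and 1.498, 2.34 and 2.45 FPKM in model thymi (adjusted p = 0.886), with ranges that overlapped. Atf5, so abundant in liver, had 9.97, 12.3 and 7.48 FPKM against 7.56, 8.86 and 9.12 FPKM (adjusted p = 0.672). Ppp1r15a had 3.49, 6.40 and 7.33 FPKM against 5.74, 7.72 and 4.69 FPKM (adjusted p = 0.882). Trib3 lay between 0.426 and 0.973 FPKM in all 6 thymi. Chac1 was listed at 0.0664, 0.288 and 0.0960 FPKM in normal and at 0, 0.103 and 0 FPKM in model thymi.

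None of the pathway lists had a called gene in the thymi. The median was -0.13 over 29 other ATF4 targets and -0.07 over 24 genes of serine and glycine use. Mthfd2, which is high in dividing cells, had 13.5 ± 2.43 FPKM in normal and 8.67 ± 2.48 FPKM in model thymi (SD, n = 3 each; difference -0.61, limma adjusted p = 0.481). Thymocyte marker sums were 2239 to 2459 FPKM in normal and 2116 to 2406 FPKM in model thymi. Sums of dividing-cell markers were 358 to 477 and 408 to 455 FPKM. The sum of 5 endothelial markers was 19.0 to 23.5 FPKM in normal and 26.9 to 35.2 FPKM in model thymi, without overlap. For 7 stellate cell markers it was 22.6 to 31.6 and 30.2 to 56.8 FPKM, and for 4 adipocyte markers 16.5 to 30.2 and 14.5 to 17.3 FPKM, with overlap in both. Their part in the values of Phgdh, Psph and Ddit3 was not tested.

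**Figure D3:**
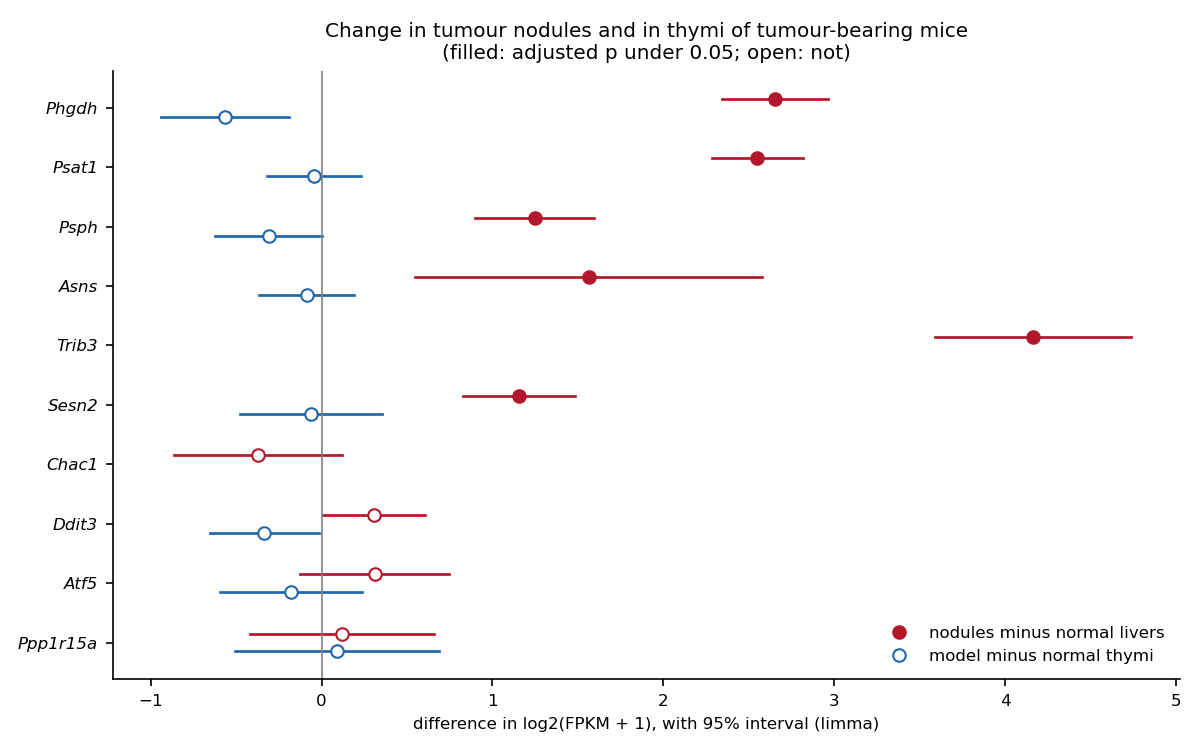
Difference in log2(FPKM + 1) with its limma 95% interval (x axis) for each member (y axis), between nodules and livers (red) and between thymi of model and normal mice (blue); filled points have an adjusted p under 0.05. The 6 filled points are all red and to the right of 0; Trib3 and Chac1 have no blue point because they were below the filter in thymi.

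Whether the change in liver differed from that in thymus was tested as an interaction over 12683 genes, taking the change from liver to nodule minus the change from normal to model thymus; 14.6% of all genes were called above 0 and 7.62% below. The fit took liver and thymus values of the same mouse as independent. For 7 of 10 members the change from liver to nodule was called above that from normal to model thymus, and for none below. One of them, Trib3, was under 1 FPKM in all 6 thymi and passed the filter through nodules and livers, so its value of 4.20 is close to its liver difference of 4.16 and says little of the thymus. The same filter admitted Chac1. The difference of differences was 3.22 for Phgdh (SE 0.218, limma adjusted p = 1.07e-06) and 2.59 for Psat1 (SE 0.162, adjusted p = 5.82e-07). It was smaller for Psph, 1.56 (adjusted p = 0.000153), and Sesn2, 1.21 (adjusted p = 0.00250). Asns, at 1.65 (adjusted p = 0.0348), and Ddit3, at 0.64 (adjusted p = 0.0263), were called less firmly: the Asns call was lost in 8 and the Ddit3 call in 5 of 17 alternatives. Atf5 (0.49, adjusted p = 0.229), Chac1 (-0.22, adjusted p = 0.595) and Ppp1r15a (0.03, adjusted p = 0.971) did not pass. Over all genes 65.6% of the calls were upward, but 51.1% with median-of-ratios scaling and 53.6% with quantile normalization.

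Between big and small nodules no gene passed (0% of 10415; limma adjusted p), and 417 had an unadjusted p under 0.05, Psat1, Ppp1r15a, Trib3 and Psph among them. In 3 members, Psat1, Psph and Trib3, every big nodule was above every small nodule, as in 3.16% of all genes. In Chac1 and Ppp1r15a every big nodule was below, as in 6% of all genes. Psat1 differed by 1.16 (95% interval 0.69 to 1.62, limma adjusted p = 0.949), with the big nodule at 3.15, 3.39 and 1.68 times the small nodule of the same mouse for mice 8, 15 and 25. The ratio was above 1 in all 3 mice for Trib3 (1.29, 1.95 and 1.63) and for Psph (1.19, 1.99 and 1.71). Ppp1r15a differed by -0.97 (95% interval -1.48 to -0.46, limma adjusted p = 0.949), with ratios of 0.552, 0.362 and 0.496, and Chac1 had ratios of 0.465, 0.602 and 0.834. Sesn2 had ratios of 1.25, 1.26 and 1.001. Phgdh, Asns, Ddit3 and Atf5 were higher in the big nodule of some mice and in the small nodule of others. With the mouse as a block still no gene passed, and the adjusted p of Psat1 was 0.672. The dividing-cell sum was 10.6 to 15.1 FPKM in big and 13.8 to 29.2 FPKM in small nodules, and its part in these differences was not tested.

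**Figure D4:**
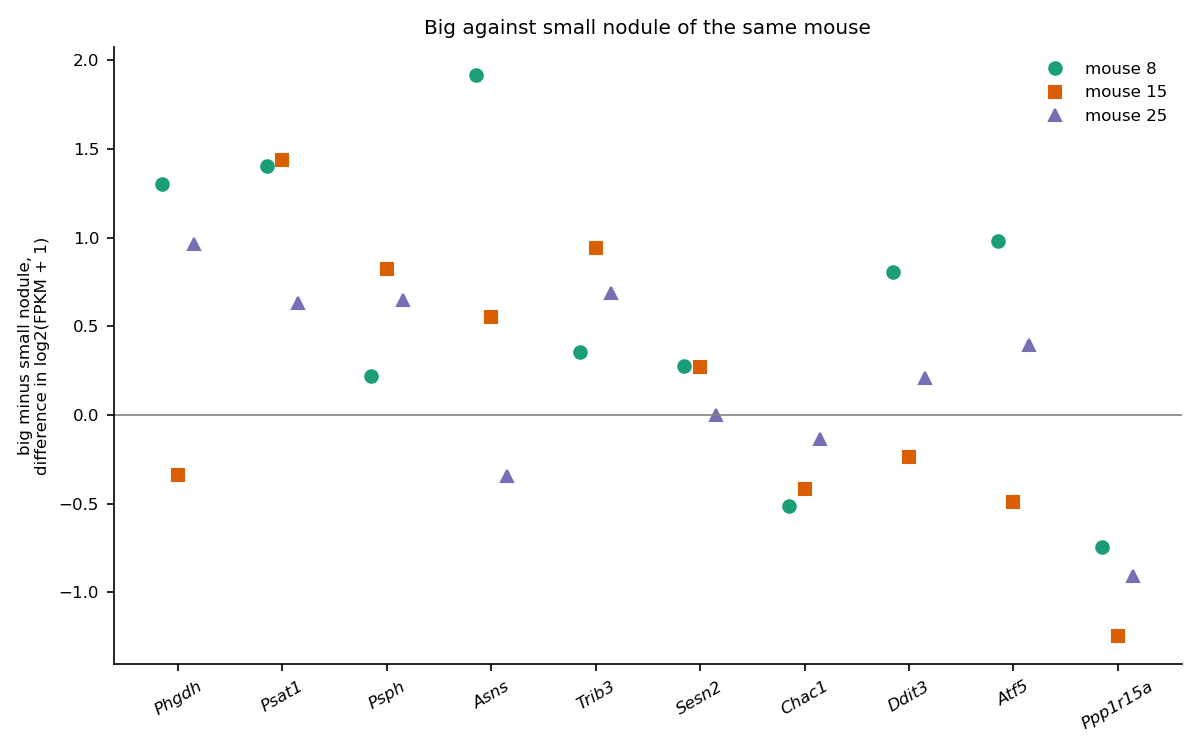
Difference in log2(FPKM + 1) between the big and the small nodule of the same mouse (y axis) for each member (x axis); each marker shape is 1 mouse. All 3 mice lie above 0 for Psat1, Psph and Trib3 and below 0 for Chac1 and Ppp1r15a, while Sesn2 lies above 0 in mice 8 and 15 and at about 0 in mouse 25; no gene passed the adjusted test.

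Across the 5 groups the members followed different orders. Phgdh was highest in normal thymi, then model thymi, big nodules (7.28 ± 2.70 FPKM), small nodules (4.26 ± 1.55 FPKM) and livers, and among neighbours only big and small nodules overlapped. For Psat1 the order was the same, with overlap between normal (17.6 ± 2.02 FPKM) and model thymi (16.9 ± 0.620 FPKM) only. Psph ran from normal thymi (7.54 ± 1.10 FPKM) and big nodules (7.18 ± 0.352 FPKM), which overlapped, to model thymi (5.85 ± 0.298 FPKM) and small nodules (4.64 ± 1.47 FPKM), which also overlapped, and livers. In normal thymi the mean of Psph was 4.09 times that of livers and 1.28 times that of nodules.

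For Trib3 the order was big nodules (51.1 ± 10.9 FPKM), small nodules (31.6 ± 4.43 FPKM) and livers, without overlap, then both kinds of thymi, which overlapped each other and the livers. Asns ran from big (15.1 ± 11.9 FPKM) to small nodules (7.84 ± 3.72 FPKM) and livers, with overlap at each step, to thymi within the liver range. Sesn2 had 2 levels: both nodule groups above, and livers and both thymus groups below, with overlap inside each level. Atf5 was high in livers and nodules and low in thymi, and Chac1 was lowest in thymi. In Ddit3 all neighbours overlapped, from 19.9 ± 2.59 FPKM in big nodules to 13.04 ± 0.356 FPKM in model thymi. Ppp1r15a was highest in small nodules (10.6 ± 2.04 FPKM), and the other 4 groups overlapped. All SD here are over n = 3 samples.

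Transcript values, which are on another length basis than the gene values, came from 1 transcript in Trib3, Phgdh, Chac1 and Sesn2. In Psat1 a second transcript, Psat1-205, had 0.971, 1.54 and 0.948 FPKM in the big nodules of mice 8, 15 and 25, at most 0.0250 FPKM in small nodules and 0 in livers. It made up 8.36% to 15.8% of the transcript FPKM of Psat1 in big nodules. In Asns the 2 transcripts changed places between samples: Asns-202 was 77.7% of the total in the big nodule of mouse 8, at 29.9 FPKM, 69.9% in the small nodule of that mouse and 63.1% in the big nodule of mouse 15. In the other 3 nodules it was at most 0.265%. Atf5-201 was 89.8% to 99.8% of the total in big nodules, 46.9% to 64.6% in small nodules and 27.7% to 78.2% in livers. These shares are estimates without an error and were not tested.

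Genes with the profile over the 15 samples closest to a member were found by the root-mean-square distance between z scores of log2(FPKM + 1), as a description. Closest to Trib3 were Abcd2 (0.0924), Cyp2b9 (0.125) and Kcnj8 (0.126), and to Phgdh Bcl10 (0.116), Bcl2l11 (0.125) and Ssbp4 (0.135). Closest to Psat1 were Sema4b (0.192), Rhebl1 (0.201) and Slc35f2 (0.216). For Asns the nearest genes were farther away, and among them were Stt3a (0.316) and Ssr1 (0.345). The samples fall into 5 groups of 3, so each distance rests on few independent contrasts.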

How the data were processed

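The authors sequenced poly(A) RNA with a stranded kit, per the labels' protocols. The submitters' processing notes name StringTie 1.3.3, HISAT2 2.1.0, FastQC 0.11.7, cutadapt and the mm10 build; not given in the sources used here were the annotation release, the strand setting and how genes were selected. The deposited values are FPKM per gene and per transcript, not counts, so depth is unknown and no counting interval was computed. Gene IDs and coordinates of the 10 genes matched GENCODE M21, and RefSeq promoters (GRCm38.p6) matched all 10, in 12 windows.

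Values were tested as log2(FPKM + 1) with limma 3.58.1 in R 4.3.3 (empirical Bayes with trend, two-sided, Benjamini-Hochberg over genes with at least 1 FPKM in at least 3 samples of the comparison, adjusted p under 0.05), after a check on simulated data. A fold change on this scale understates low genes. Both nodules of a mouse were averaged as log2 values before the comparison with livers. Mouse numbers pair the nodules: deviations from the group means correlated at 0.311, 0.261 and 0.325 within mice and at -0.243 to -0.0457 between mice. The titles number separate animals within each group except the livers, of which 2 share a mouse number; if these are 1 animal, p-values of the comparisons with livers are too small. The genes, lists and tests were chosen with earlier results of these data known. Besides the 10 genes, the text names up to 4 genes per list with the smallest adjusted p, 10 genes fixed by name, and the 3 nearest profiles of 4 members. Alternatives were a pseudocount of 0.1, no filter or at least 5 FPKM, equal sums, median-of-ratios and quantile scaling, no trend, each animal left out, 1 nodule size, and a block by mouse. Leaving out the big nodule of mouse 8 or the small nodule of mouse 15 was added after seeing the data. A few genes that the naming rule covers are not reported here.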

Additional observations from a re-analysis of the deposited data

Results flagged for a closer look

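Asns at 28.8 FPKM in the big nodule of mouse 8 stood apart from the other 5 nodules, which lay between 4.68 and 11.9 FPKM: its gap to the nearest nodule was 0.699 of the whole range. Were the nodules independent, chance alone would set about 1 in 20 such groups apart, and 20 ends of ranges were looked at in the 10 genes. The nodules come in pairs from the same mice, so that rate is only a rough guide. The gap was measured on FPKM. A log scale draws high values closer together, and the gap was not measured on it. In the same nodule Asns-202 made up 77.7% of the transcript FPKM, and Sesn2, Psat1, Psph, Atf5 and Ddit3 were also at their highest among the nodules, though not apart from the rest by this measure.

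The model effect in liver and in thymus differed by a tested interaction in 7 of the 10 genes, where 22.2% of all genes were called and 14.6% above 0. The liver effect exceeded the thymus effect by 4.20 in Trib3, 3.22 in Phgdh, 2.59 in Psat1, 1.65 in Asns, 1.56 in Psph, 1.21 in Sesn2 and 0.64 in Ddit3, all on the log2(FPKM + 1) scale. Trib3 was under 1 FPKM in all 6 thymi, so its value describes the liver difference and says little of the thymus. The calls of Asns and Ddit3 were lost in 8 and 5 of 17 alternatives. In Phgdh, Psph and Ddit3 all 3 model thymi were below all 3 normal thymi, a difference that enters these values and did not itself pass over all genes.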

How the results depend on the processing

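The calls of Phgdh, Psat1, Psph, Trib3 and Sesn2 as higher in nodules held under all 18 alternatives; the number of members called higher ranged from 5 to 7. With quantile normalization 1 member was called lower (Chac1, -0.68, adjusted p = 0.0317), against 0. Over all genes 2606 were called when at least 5 FPKM were asked for, against 4316; fewer genes were then tested. Asns lost its call in 5 alternatives, given with its values in the report, and Ddit3 gained one with equal sums.

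Ppp1r15a, which never passed, changed sign between nodules and livers: -0.057 with median-of-ratios scaling, -0.037 with quantile normalization, -0.36 with big nodules alone, -0.088 without the small nodule of mouse 15, and -0.11 to 0.32 with 1 animal left out. In the comparison of organs it was -0.12 and -0.042 under the first 2 of these and -0.27 to 0.31 with 1 animal left out, and in thymi -0.18 to 0.27. Psat1 in thymi was 0.0076 with equal sums and -0.14 to 0.018 with 1 animal left out, and Sesn2 -0.16 to 0.086. Between nodule sizes Ddit3 ranged from -0.013 to 0.51 and Atf5 from -0.046 to 0.69, both below 0 without mouse 8. Chac1 in the comparison of organs was 0.29 with a pseudocount of 0.1 and -0.37 to 0.029 with 1 animal left out. None of these values passed, and the cause was not tested.

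In thymi 0 to 11 genes were called with 1 animal left out, 11 without the normal thymus numbered 2, and no member among them. Where 1 animal was left out of nodules or livers, the Asns difference ranged from 1.12 to 1.98. The interaction called 5 to 7 members over 17 alternatives; adjusted p reached 0.130 for Asns and 0.1002 for Ddit3. Nodules are paired by mouse: with the replicate block 0 genes passed between nodule sizes, with 763 at an unadjusted p under 0.05 against 417. In the interaction another block joined the nodule mean and the thymus of each model mouse, and 2889 genes were called against 2815. Livers and thymi of normal mice were not joined. Neither block changed a call of a member. Counts over the gene lists changed by over 1.5 times, or from or to 0, in 110 of 1062 cases. The cases include thymi and nodule sizes, where 0 genes were called in the main fits and at most 11 in any alternative. List counts there could hardly move. The share that changed therefore understates how far counts in nodules against livers and in the interaction depend on processing. FPKM without counts limit all of this: the error of low values such as Phgdh in livers is unknown.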
